A study of Mus musculus with 15 samples.

Results

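The lipoprotein lipase axis and the fatty acid uptake machinery were followed in brown adipose tissue through 10 genes chosen by name: Lpl, Gpihbp1, Angptl4, Lmf1, Cd36, Vldlr, Slc27a1, Slc27a2, Fabp3 and Fabp4. The rule that chose them uses no measured value, though earlier results of these data were known when they were chosen. They are 10 of 18194 genes with a named probe set, and 10 of 10 lay above the filter on dim signals that left 13174 genes for testing. The tissue came from between the shoulder blades of adult male wild-type C57BL/6N mice, all kept on a high-fat diet, and was collected on day 5. 5 mice received aFGFR1/KLB, the bispecific antibody bFKB1 that activates the receptor FGFR1 with its co-receptor KLB, as 1 intraperitoneal dose of 10 mg/kg. Another 5 mice received human FGF21, the hormone that signals through the same receptor pair, in 2 daily doses of 1 mg/kg. The last 5 mice were controls, for which no injected substance is named. Dose and schedule differed between antibody and hormone, so a difference between them cannot be told apart from those. The study's question was how activating FGFR1/KLB changes transcripts in brown fat, and it is asked here of the genes that bring in fatty acids.

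Lipoprotein lipase, the product of Lpl, splits the triglycerides of circulating lipoproteins at the wall of capillaries and releases fatty acids for the tissue behind. LMF1 folds the enzyme in the endoplasmic reticulum of the cell that makes it, GPIHBP1 carries it across the endothelial cell to the capillary lumen, and ANGPTL4 inactivates it. The fatty acids enter through CD36 and the transport proteins encoded by Slc27a1 and Slc27a2, and bind inside the cell to FABP3 and FABP4, while the VLDL receptor binds the lipoproteins themselves. In brown fat this route supplies fuel for heat production and is known to be raised by cold.

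Values are log2 intensities of 1 probe set per gene, 1 array per mouse, and a fold change is a difference of group means on that scale. A gene is called when its adjusted p in limma, over all 13174 genes, is under 0.05. The brown fat genes Ucp1, Cidea, Cox7a1 and Cox8b lay between 13.42 and 14.82 in all 15 samples. Control 34 and FGF21 36 stood apart: their means over 12 macrophage markers were 11.52 and 11.80, each the highest of its group. Among their groups, control 34 was the lowest in 6 of 10 genes of the axis and FGF21 36 in 5. For these 10 genes, results that rest on either are therefore also given without it. Both treatments were compared with the same 5 controls. In a piece of tissue, fewer cells of a type and less RNA per cell cannot be told apart.

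With the antibody, Cd36 and Slc27a2 rose and Angptl4 fell, which makes 3 of 10 genes called, against 5.18% of all genes tested. The 2 that rose compare with 2.69% of all genes called higher, and the 1 that fell with 2.49% called lower. In 5 of the 10, the antibody group did not overlap the control group (8.61% of all genes): Lpl, Angptl4, Cd36, Slc27a2 and Fabp3. The same 5 had an unadjusted p under 0.05 (19.4% of all genes). With FGF21, Lpl alone was called, 1 of 10 against 6.32% of all genes, which is a share near that of all genes. That gene rose (2.64% of all genes called higher, 3.68% lower), 0 of the 10 had groups without overlap (5.25% of all genes), and 4 had an unadjusted p below 0.05 (20.4% of all genes). Between antibody and FGF21, 0 of 10 were called by limma, against 0.372% of all genes (0.129% higher and 0.243% lower). Fabp3 was the 1 gene of the 10 below 0.05 before adjustment (13.5% of all genes), also in an exact permutation test, and the 1 without overlap (4.69% of all genes). The median log2 fold change of the 10 genes was 0.15 with the antibody and 0.067 with FGF21, against −0.019 and −0.018 over all genes. 9 and 8 of the 10 were positive, where 45.1% and 45.5% of all genes were. Without control 34, 8 and 5 of the 10 were positive (45.2% and 44.7% of all genes), with medians of 0.10 and 0.0075, so the FGF21 share then lay near that of all genes.

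**Figure D1:**
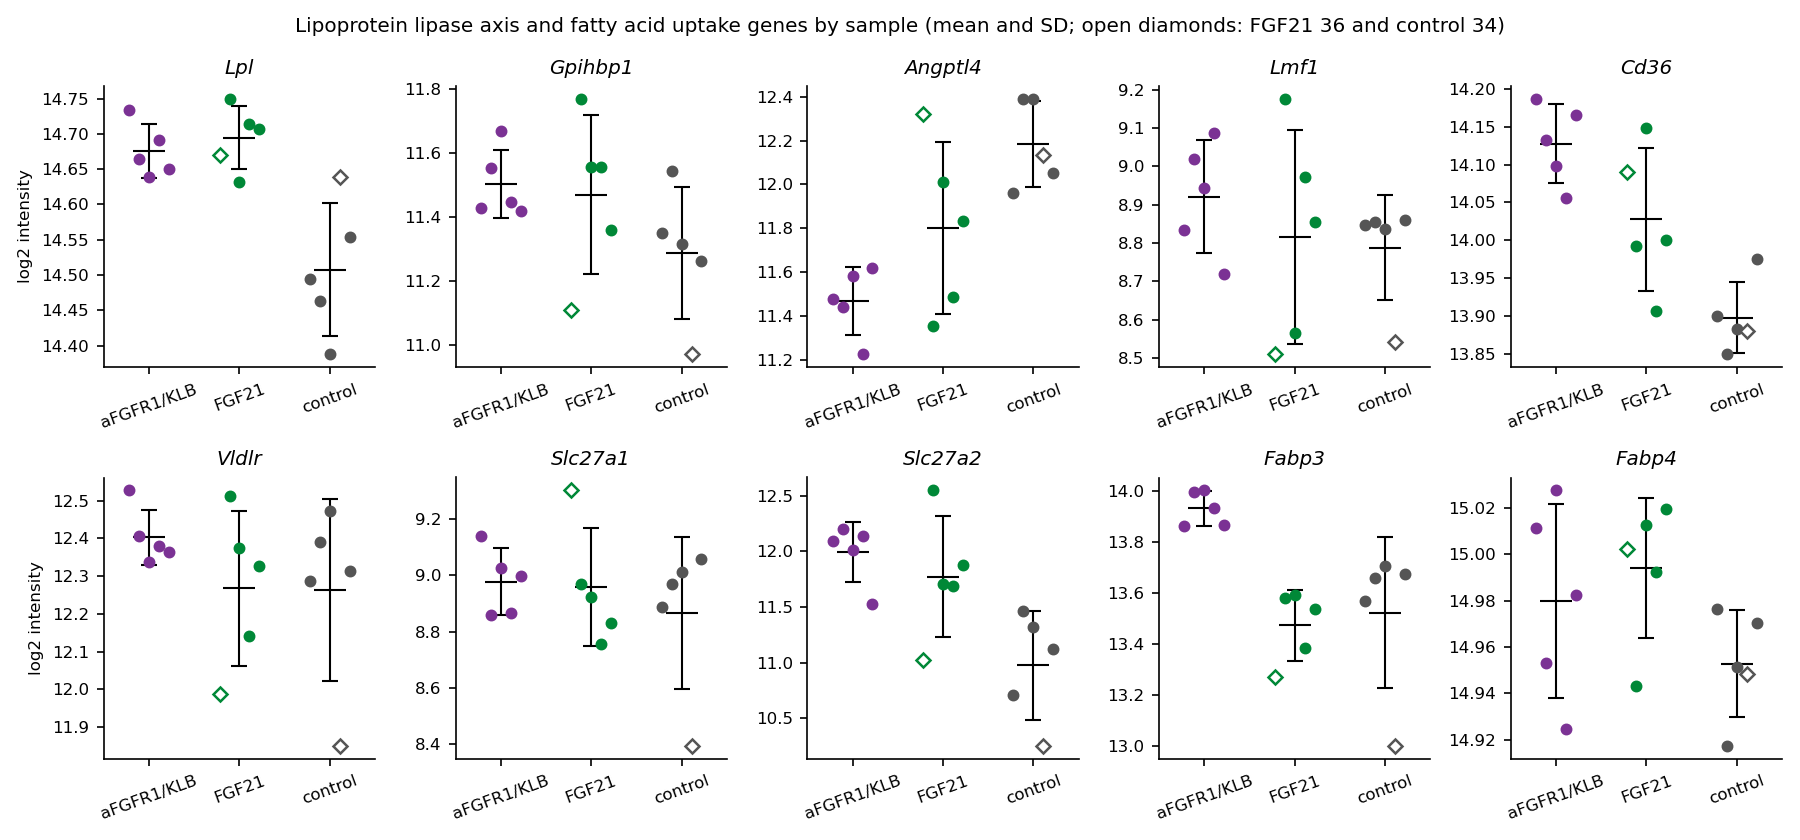
Log2 intensity of the 10 genes in every sample (points), with group means and standard deviations (bars), in the order aFGFR1/KLB, FGF21 and control, 5 mice each. The antibody points of Angptl4 lie below, and those of Lpl, Cd36, Slc27a2 and Fabp3 above, every control point; each panel has its own scale.

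Lpl encodes the lipase itself. In antibody-treated mice it measured 14.73, 14.66, 14.64, 14.69 and 14.65. In FGF21-treated mice it measured 14.67, 14.75, 14.63, 14.71 and 14.71, and in controls 14.49, 14.46, 14.39, 14.64 and 14.55. Every antibody value lay above the highest control, while the lowest FGF21 value lay just below control 34, itself the highest control. Lpl rose by 0.19 ± 0.053 with FGF21 (standard error, adjusted p = 0.0489 in limma) and had a fold change of 0.17 ± 0.053 with the antibody (adjusted p = 0.0818), both on the log2 scale. Both results moved with single samples: without control 34 the fold changes were 0.22 with FGF21 (adjusted p = 0.00871) and 0.20 with the antibody (adjusted p = 0.0215), whereas leaving out any other sample ended the call with FGF21 (adjusted p between 0.0532 and 0.121). Another, dimmer probe set for Lpl ranged from 13.01 to 13.21 with the antibody, 13.11 to 13.36 with FGF21 and 12.64 to 12.97 in controls, with no overlap between either treatment and control. Its fold changes were 0.36 with the antibody and 0.44 with FGF21 (adjusted p = 0.0142 and 0.00359 in limma over all probe sets). Between the treatments Lpl differed by −0.019 on the probe set used (adjusted p = 0.895).

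Gpihbp1, whose protein holds the lipase on the endothelium, measured 11.43, 11.55, 11.67, 11.45 and 11.42 with the antibody. With FGF21 it measured 11.11, 11.77, 11.56, 11.56 and 11.36, and in controls 11.35, 11.54, 11.31, 10.97 and 11.26. The groups overlapped, and the fold changes of 0.22 with the antibody (95% interval −0.039 to 0.47, adjusted p = 0.354) and 0.18 with FGF21 (adjusted p = 0.437) did not pass. Without control 34, the lowest control, they were 0.14 and 0.10 (adjusted p = 0.534 and 0.559). Lmf1, the folding factor, ranged from 8.72 to 9.09 with the antibody, 8.51 to 9.18 with FGF21 and 8.54 to 8.86 in controls. Its fold changes of 0.13 with the antibody and 0.028 with FGF21 did not pass either (adjusted p = 0.609 and 0.927), and without control 34 they were 0.073 and −0.033. The mean over 12 endothelial markers was 8.95 ± 0.062 with the antibody, 8.97 ± 0.23 with FGF21 and 8.80 ± 0.12 in controls (SD, n = 5 each). Of the 12, 1 was called higher with both treatments, Sox17 (2.69% and 2.64% of all genes called higher). The FGF21 call of Sox17 ended without control 31, 32 or 35 or FGF21 37 or 39 (adjusted p up to 0.0850). The part of these markers in the values of Gpihbp1 was not tested.

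Angptl4, the lipase inhibitor of the axis, measured 11.47, 11.44, 11.58, 11.22 and 11.62 in antibody-treated mice. In FGF21-treated mice it measured 12.32, 11.35, 12.01, 11.49 and 11.83, and in controls 11.96, 12.39, 12.39, 12.14 and 12.05. All antibody values lay below the lowest control, and the FGF21 values spread across both ranges, with FGF21 36 and 38 inside the control range. Angptl4 fell by 0.72 on the log2 scale with the antibody (standard error 0.16, 95% interval −1.06 to −0.38, adjusted p = 0.0186). With FGF21 the fold change was −0.38 (adjusted p = 0.182), and without FGF21 36 it was −0.52 and passed (adjusted p = 0.0357). That was the only 1 of 15 fits without 1 sample in which it passed (adjusted p up to 0.364 in the others). The antibody call held in 12 of 15 fits without 1 sample and ended just past the threshold without control 32, control 33 or aFGFR1/KLB 44 (adjusted p = 0.0527, 0.0504 and 0.0528). With the mean of the endothelial markers as a covariate the difference was −0.55 and did not pass (adjusted p = 0.0539). Antibody and FGF21 differed by −0.33, which did not pass (adjusted p = 0.380). Its probe set carries a suffix, s_at, that marks a kind whose probes may be shared by more than 1 transcript.

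Cd36, the scavenger receptor that takes up long-chain fatty acids, measured 14.19, 14.13, 14.10, 14.06 and 14.17 with the antibody. With FGF21 it measured 14.09, 13.99, 14.15, 13.91 and 14.00, and in controls 13.90, 13.85, 13.88, 13.88 and 13.97. The lowest antibody value was above the highest control, and FGF21 values fell between and among both. Cd36 rose by 0.23 ± 0.054 with the antibody (95% interval 0.11 to 0.35, adjusted p = 0.0248). The fold change with FGF21 was 0.13 (adjusted p = 0.187), and antibody and FGF21 differed by 0.10 (adjusted p = 0.424). The antibody call held in 9 of 15 fits without 1 sample. It ended without control 31, 32 or 33 (adjusted p = 0.0514, 0.0669 and 0.0519) and without aFGFR1/KLB 41, 42 or 45 (0.0661, 0.0620 and 0.0528). Both other probe sets of Cd36 were higher with the antibody too, by 0.15 and 0.32, and neither passed (adjusted p = 0.174 and 0.0802 over all probe sets).

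Slc27a2 encodes a fatty acid transport protein that is also a very-long-chain acyl-CoA synthetase, and it changed the most of the 10 genes. It measured 12.09, 12.20, 12.02, 12.14 and 11.53 in antibody-treated mice. In FGF21-treated mice it measured 11.03, 12.55, 11.71, 11.69 and 11.88, and in controls 10.71, 11.46, 11.32, 10.25 and 11.13. Every antibody value lay above every control, and 4 of 5 FGF21 values did, FGF21 36 being the exception. Slc27a2 rose by 1.02 ± 0.26 on the log2 scale with the antibody (95% interval 0.46 to 1.58, adjusted p = 0.0367). With FGF21 the fold change was 0.80 ± 0.26 and did not pass (adjusted p = 0.0894). Without FGF21 36 it was 0.98 and passed (adjusted p = 0.0257). That was the only 1 of 15 fits without 1 sample in which the FGF21 difference passed (adjusted p up to 0.189 in the others). Without control 34, the lowest control, the fold change with FGF21 was smaller, 0.62 (adjusted p = 0.102). That with the antibody was then 0.84 and passed narrowly (adjusted p = 0.0497). The antibody call held in 7 of 15 fits without 1 sample and ended, with adjusted p between 0.0502 and 0.0951, without control 31, 33 or 35, FGF21 40, or aFGFR1/KLB 41, 42, 43 or 44. With the endothelial mean as a covariate it was 0.90 and did not pass (adjusted p = 0.117). The difference between antibody and FGF21 was 0.22 (95% interval −0.34 to 0.78, adjusted p = 0.711), an interval that includes differences of either sign.

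Upstream windows were searched for 6 of the 10 genes, 9 windows in all, and those of Slc27a2 and Cd36 held the nuclear receptor hexamer AGGTCA, a motif that receptors such as the PPARs bind in pairs. The windows shown are the 250 bases before a RefSeq start of each gene (GRCm38.p6), shown because both genes rose with the antibody, with the hexamer in capitals as TGACCT, its reverse strand. The Slc27a2 window lies at chr2:126552774-126553023 on the plus strand, and the Cd36 window at chr5:17835897-17836146 on the minus strand.
Slc27a2: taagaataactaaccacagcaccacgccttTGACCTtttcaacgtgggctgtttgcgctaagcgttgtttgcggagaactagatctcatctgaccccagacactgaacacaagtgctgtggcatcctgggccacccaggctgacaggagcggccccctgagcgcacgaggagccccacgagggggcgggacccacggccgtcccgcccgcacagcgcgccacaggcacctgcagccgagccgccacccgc
Cd36: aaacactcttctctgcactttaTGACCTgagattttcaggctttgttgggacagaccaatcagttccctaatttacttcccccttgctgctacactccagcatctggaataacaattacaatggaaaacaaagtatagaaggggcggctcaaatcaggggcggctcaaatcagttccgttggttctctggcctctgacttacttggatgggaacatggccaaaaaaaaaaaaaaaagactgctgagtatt
Counted from the start, the hexamer lies at positions −220 to −215 in Slc27a2 and −228 to −223 in this Cd36 window. With 2 of 9 windows, set beside 14.02% of 32851 windows of the same length with the hexamer on either strand, this is close to the share of all windows. The direct repeat of that hexamer with 1 base between copies, the form that PPAR and its partner RXR bind together, was found on either strand in none of the 9 and in 11 of the 32851. Windows for Lpl, Gpihbp1, Angptl4 and Fabp4 were not used here.

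Slc27a1, the other fatty acid transport protein, ranged from 8.86 to 9.14 with the antibody, 8.76 to 9.30 with FGF21 and 8.39 to 9.06 in controls. Its fold changes were 0.11 with the antibody and 0.092 with FGF21 (adjusted p = 0.693 and 0.749). Without control 34, the lowest of all, these were −0.0054 and −0.025. Vldlr, the VLDL receptor, ranged from 12.34 to 12.53 with the antibody, 11.99 to 12.51 with FGF21 and 11.85 to 12.47 in controls, with fold changes of 0.14 and 0.0054 (adjusted p = 0.567 and 0.985). Without control 34, also the lowest for Vldlr, these were 0.037 and −0.098. It was read by 6 probe sets, none of them called in any comparison. The one used carries the suffix x_at, which marks probes that can bind related sequences.

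Fabp3, the heart-type fatty acid binding protein, was the gene of the axis on which antibody and FGF21 were farthest apart. It measured 13.86, 13.996, 14.003, 13.93 and 13.87 with the antibody. With FGF21 it measured 13.27, 13.58, 13.59, 13.39 and 13.54, and in controls 13.57, 13.66, 13.71, 13.00 and 13.68. On this probe set the antibody group lay above every FGF21 and every control value, and the FGF21 and control groups overlapped. The other, dimmer probe set of Fabp3 ranged from 6.99 to 7.36 with the antibody, 6.32 to 7.06 with FGF21 and 6.54 to 7.49 in controls. On it the antibody differed by 0.19 from control and by 0.44 from FGF21, and neither passed (adjusted p = 0.658 and 0.315 in limma over all probe sets). The difference between antibody and FGF21 was 0.46 ± 0.12 (95% interval 0.21 to 0.71), with an adjusted p of 0.110 in limma. A fit on the 10 arrays of these groups alone passed it (adjusted p = 0.0277). Against control, the fold change was 0.41 ± 0.12 with the antibody (adjusted p = 0.0577) and −0.049 with FGF21 (adjusted p = 0.861). Without control 34, the lowest control, the antibody differed by 0.28 from control (adjusted p = 0.0265) and by 0.46 from FGF21 (adjusted p = 0.00484), and both passed. Without FGF21 36, the difference of 0.41 from control passed as well (adjusted p = 0.0452). Against control these were the only 2 of 15 fits without 1 sample that passed (adjusted p up to 0.130 in the others). Against FGF21 the fit without control 34 was the only 1 of 15 (adjusted p up to 0.252 in the others). Fabp3 is also a skeletal muscle gene, and the mean over 10 muscle markers ranged from 4.91 to 13.21 with the antibody, 4.74 to 13.05 with FGF21 and 8.79 to 10.81 in controls. Taken as deviations from group means over 15 samples, Fabp3 and that muscle mean had r = −0.24 (permutation p = 0.189, adjusted 0.358 over 70 relations) and Spearman's rho = −0.27.

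Fabp4, the adipocyte fatty acid binding protein, differed between its probe sets. On the one used it lay between 14.92 and 15.03 in all 15 samples, close to the highest value of the whole table, 15.08, and its fold changes were 0.027 with the antibody and 0.041 with FGF21 (adjusted p = 0.794 and 0.646). A dimmer probe set measured 12.04 ± 0.17 with the antibody, 12.09 ± 0.11 with FGF21 and 11.40 ± 0.14 in controls (SD, n = 5 each). Both treated groups lay above every control on it, by 0.63 and 0.69 (adjusted p = 0.0019 and 0.000864 in limma over all probe sets). The dimmest of 4 sets gave 0.32 and 0.37 (adjusted p = 0.0926 and 0.0482), and the remaining one 0.13 and 0.073, neither of which passed. What each Fabp4 probe set binds was not tested.

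**Figure D2:**
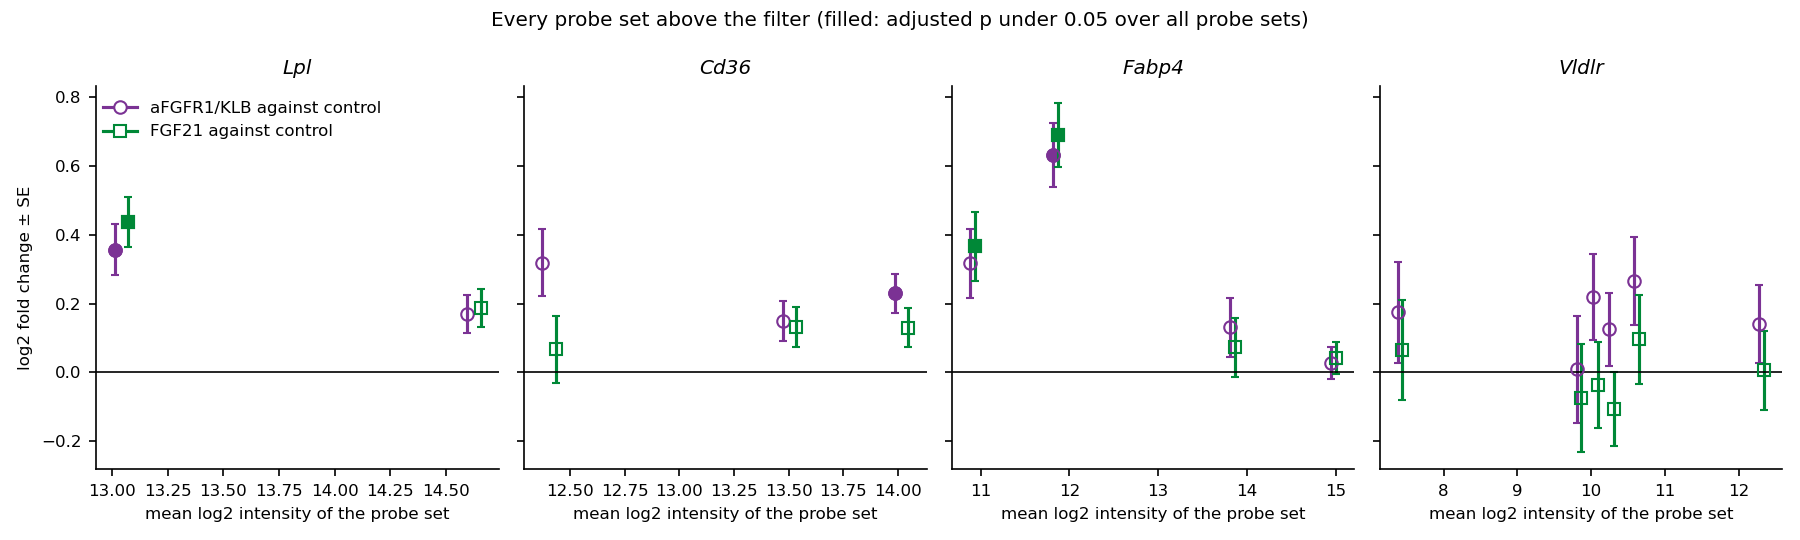
Log2 fold change against control (vertical axis, with standard errors as bars) of every probe set above the filter of Lpl, Cd36, Fabp4 and Vldlr, against the mean log2 intensity of the probe set (horizontal axis), for aFGFR1/KLB and FGF21. The dimmer set of Lpl (0.36 and 0.44) and a dimmer set of Fabp4 (0.63 and 0.69) lie farther from 0 than the brightest set of the same gene, which was the one used.

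**Figure D3:**
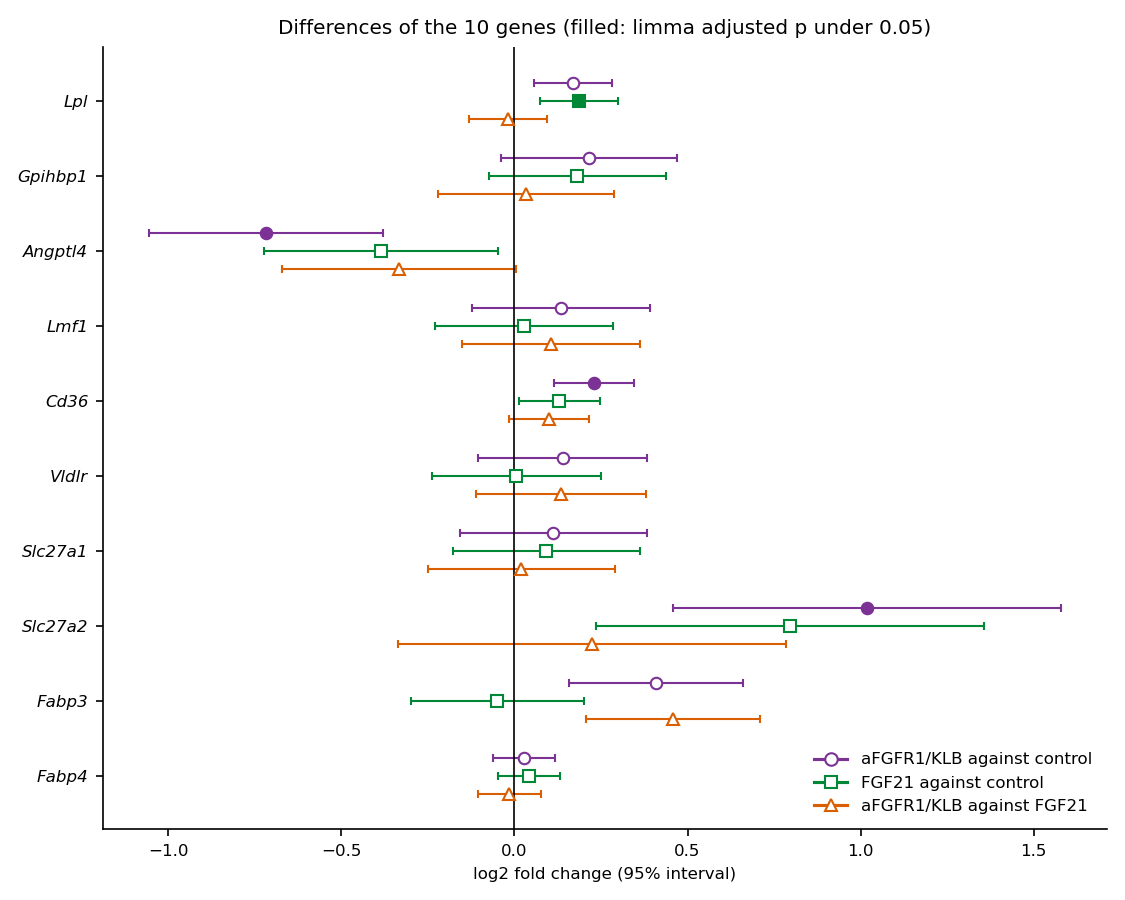
Log2 fold changes (points) with 95% intervals (lines) of the 10 genes for aFGFR1/KLB against control, FGF21 against control and aFGFR1/KLB against FGF21, with filled points for those with a limma adjusted p under 0.05. Angptl4 (−0.72), Cd36 (0.23) and Slc27a2 (1.02) are filled for the antibody, Lpl (0.19) for FGF21, and none between the treatments.

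Antibody and FGF21 differed by −0.014 to 0.13 in Gpihbp1, Lmf1, Vldlr, Slc27a1 and Fabp4 (adjusted p between 0.601 and 0.956). The exact two-sided permutation test over all splits of 5 against 5 samples gave its smallest possible p, 0.00794, for Lpl, Angptl4, Cd36, Slc27a2 and Fabp3 with the antibody. With FGF21 it gave 0.0159 for Lpl, 0.0159 for Cd36 and 0.0476 for Slc27a2, and between the treatments 0.00794 for Fabp3. That smallest p is reached only where the groups do not overlap. Adjusted over all genes, it became 0.0922 with the antibody and 0.169 between the treatments. After adjustment over all genes this test calls 0 genes in any comparison, with 2774, 2106 and 2149 genes at an unadjusted p under 0.05. With so few splits the test could hardly pass any gene, so its 0 calls decide nothing about these genes. The calls of the 10 genes were also read on other scalings. Centring the arrays on their median kept all 4 and added Fabp3 with the antibody (0.43, adjusted p = 0.0434), and quantile normalisation kept the 3 with the antibody and ended that of Lpl with FGF21 (adjusted p = 0.0637). When arrays were centred on 48 genes for ribosomal proteins, 0 of the 10 genes passed. That centring put the median fold change of all genes at 0.080 with the antibody, in place of −0.019. With it Angptl4 was at −0.62, Cd36 at 0.33 and Slc27a2 at 1.12 with the antibody (adjusted p = 0.0701, 0.177 and 0.119), and Lpl at 0.20 with FGF21 (adjusted p = 0.472).

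Around the axis, 53 further genes of lipoprotein handling and fatty acid transport were listed, of which 48 have a probe set with 1 gene name and 43 were tested. With the antibody, 1 of the 43 was called higher and 3 lower, 4 in all against 5.18% of all genes. With FGF21, 0 were called higher and 3 lower, a share of the 43 near the 6.32% of all genes. Between the treatments 1 was called, higher with the antibody (0.372% of all genes). The median fold changes of the 43 were −0.086, −0.035 and 0.014. Leaving out 1 sample changed these counts to between 1 and 6 with the antibody, 3 and 7 with FGF21, and 1 and 3 between the treatments. The count of 4 with the antibody became 2 or 1 without control 31, 32, 33 or 35 or aFGFR1/KLB 41, 42, 43 or 44. The count with FGF21 became 7 without control 34, and the count between the treatments 2 without control 33 or FGF21 36 and 3 without control 34.

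Among 6 tested lipases, apolipoproteins and angiopoietin-like proteins, Angptl8 was called with both treatments. Its protein takes part in inhibiting lipoprotein lipase. It measured 8.72, 9.12, 9.03, 8.97 and 8.93 with the antibody. With FGF21 it measured 8.50, 8.76, 8.92, 8.51 and 8.99, and in controls 10.30, 9.83, 9.96, 8.88 and 9.97. Control 34 alone lay within the treated ranges, and the other 4 controls lay above all 10 treated samples. Angptl8 fell by 0.83 on the log2 scale with the antibody (adjusted p = 0.0289) and by 1.05 with FGF21 (adjusted p = 0.00717), and without control 34 by 1.06 and 1.28 (adjusted p = 0.000483 and 3.62e-05). With FGF21 the call held in 15 of 15 fits without 1 sample. With the antibody it held in 6 of 15 and ended, with adjusted p up to 0.0749, without any 1 of the other 4 controls or of the 5 antibody samples.

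None of 9 genes that fold, move or cleave the lipase was called, nor any of 4 lipoprotein receptors. Before adjustment 4 of the 9 and 1 of the 4 were below 0.05 in limma with the antibody (19.4% of all genes). With FGF21 these counts were 1 and 0 (20.4% of all genes). The chaperone calnexin (Canx) had a fold change of 0.31 with the antibody (adjusted p = 0.103), and the convertase gene Pcsk5 one of 0.30 (adjusted p = 0.0762). Scarb1, which encodes the HDL receptor SR-BI, had −0.36 (adjusted p = 0.141). Without control 34, Canx and Pcsk5 passed with the antibody, at 0.41 and 0.35 (adjusted p = 0.00405 and 0.0247 in limma).

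Of 13 tested genes for other transport, activation and binding proteins, Acsl3 and Cavin1 were called with the antibody. Acsl3, an acyl-CoA synthetase of the endoplasmic reticulum and lipid droplets, ranged from 8.66 to 8.95 with the antibody, 8.07 to 8.39 with FGF21 and 8.34 to 8.60 in controls. The antibody range lay above both others. Acsl3 was higher by 0.37 against control (adjusted p = 0.0171) and by 0.58 against FGF21 (adjusted p = 0.0068), and both calls held in 15 of 15 fits without 1 sample. Cavin1, a coat protein of caveolae, ranged from 10.89 to 11.36 with the antibody, 11.59 to 12.42 with FGF21 and 11.56 to 11.79 in controls, again with the antibody range apart. It fell by 0.55 against control (adjusted p = 0.0347) and differed by −0.68 from FGF21 (adjusted p = 0.0522). The Cavin1 call held in 7 of 15 fits and ended, with adjusted p up to 0.0965, without control 31, 32, 33 or 35 or aFGFR1/KLB 41, 42, 43 or 44.

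Of 11 regulators of fatty acid uptake, Cebpa, a transcription factor of adipocytes, fell by 0.43 with the antibody (adjusted p = 0.0241) and by 0.46 with FGF21 (adjusted p = 0.0138). It averaged 12.005 ± 0.11 with the antibody, 11.97 ± 0.16 with FGF21 and 12.43 ± 0.20 in controls (SD, n = 5 each). The FGF21 call held in 15 of 15 fits without 1 sample and the antibody call in 8, ending without control 32, 33 or 35 or aFGFR1/KLB 41, 42, 43 or 45 (adjusted p up to 0.0684). Ppara, the nuclear receptor for fatty acids that drives their oxidation, ranged from 11.40 to 11.52 with the antibody, 10.48 to 11.27 with FGF21 and 11.29 to 11.97 in controls. It fell by 0.68 with FGF21 (adjusted p = 0.0127), in 15 of 15 fits, and had a fold change of −0.29 with the antibody (adjusted p = 0.297). None of the 5 pathway genes called passed against control with ribosomal centring.

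Angptl4, Cd36, Slc27a2, Fabp3 and Lpl are known targets of PPARs. They are the genes of the axis whose antibody and control groups did not overlap, so this selection follows the measured values. Angptl4 fell with the antibody, while Cd36, Slc27a2, Fabp3 and Lpl had positive fold changes. The other genes of the axis were not sorted by this property, and a PPAR pattern within the axis was not tested. Beside the genes named, 14 further PPAR target genes of fatty acid oxidation and storage were listed, of which 11 were tested. With the antibody 4 were called higher and 0 lower, against 2.69% and 2.49% of all genes. Among them were Acot1 (1.22, adjusted p = 0.000768) and Acot2 (0.69, adjusted p = 0.0168), both acyl-CoA thioesterases. The others were Ehhadh (1.495, adjusted p = 0.00737), an enzyme of peroxisomal oxidation, and the lipid droplet protein gene Plin2 (0.23, adjusted p = 0.0352). With FGF21 3 were called higher and 1 lower, against 2.64% and 3.68% of all genes. Acot1 (0.92, adjusted p = 0.00271), Plin2 (0.37, adjusted p = 0.00189) and Cpt1a (0.69, adjusted p = 0.0386), which passes fatty acids into mitochondria, rose, and Ucp3, a mitochondrial carrier, fell by 1.19 (adjusted p = 0.00449). Between the treatments limma called 0 of the 11 (0.372% of all genes), with 4 below 0.05 before adjustment (13.5% of all genes). The antibody calls of Acot1 and Ehhadh held in 15 of 15 fits without 1 sample. That of Acot2 ended without aFGFR1/KLB 42 (adjusted p = 0.0510), and that of Plin2 in 8 fits: without control 32, 33 or 35, FGF21 40, or aFGFR1/KLB 41, 42, 43 or 45 (adjusted p up to 0.10). With FGF21 those of Acot1, Plin2 and Ucp3 held in 15 of 15, and that of Cpt1a held in 2, without control 34 and without aFGFR1/KLB 45 (adjusted p up to 0.103 in the others). Cpt1a, not called with the antibody on all samples, passed with it without control 34 (0.74, adjusted p = 0.00157 in limma). With ribosomal centring Acot1 and Ehhadh with the antibody and Acot1, Cpt1a and Ucp3 with FGF21 still passed.

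**Figure D4:**
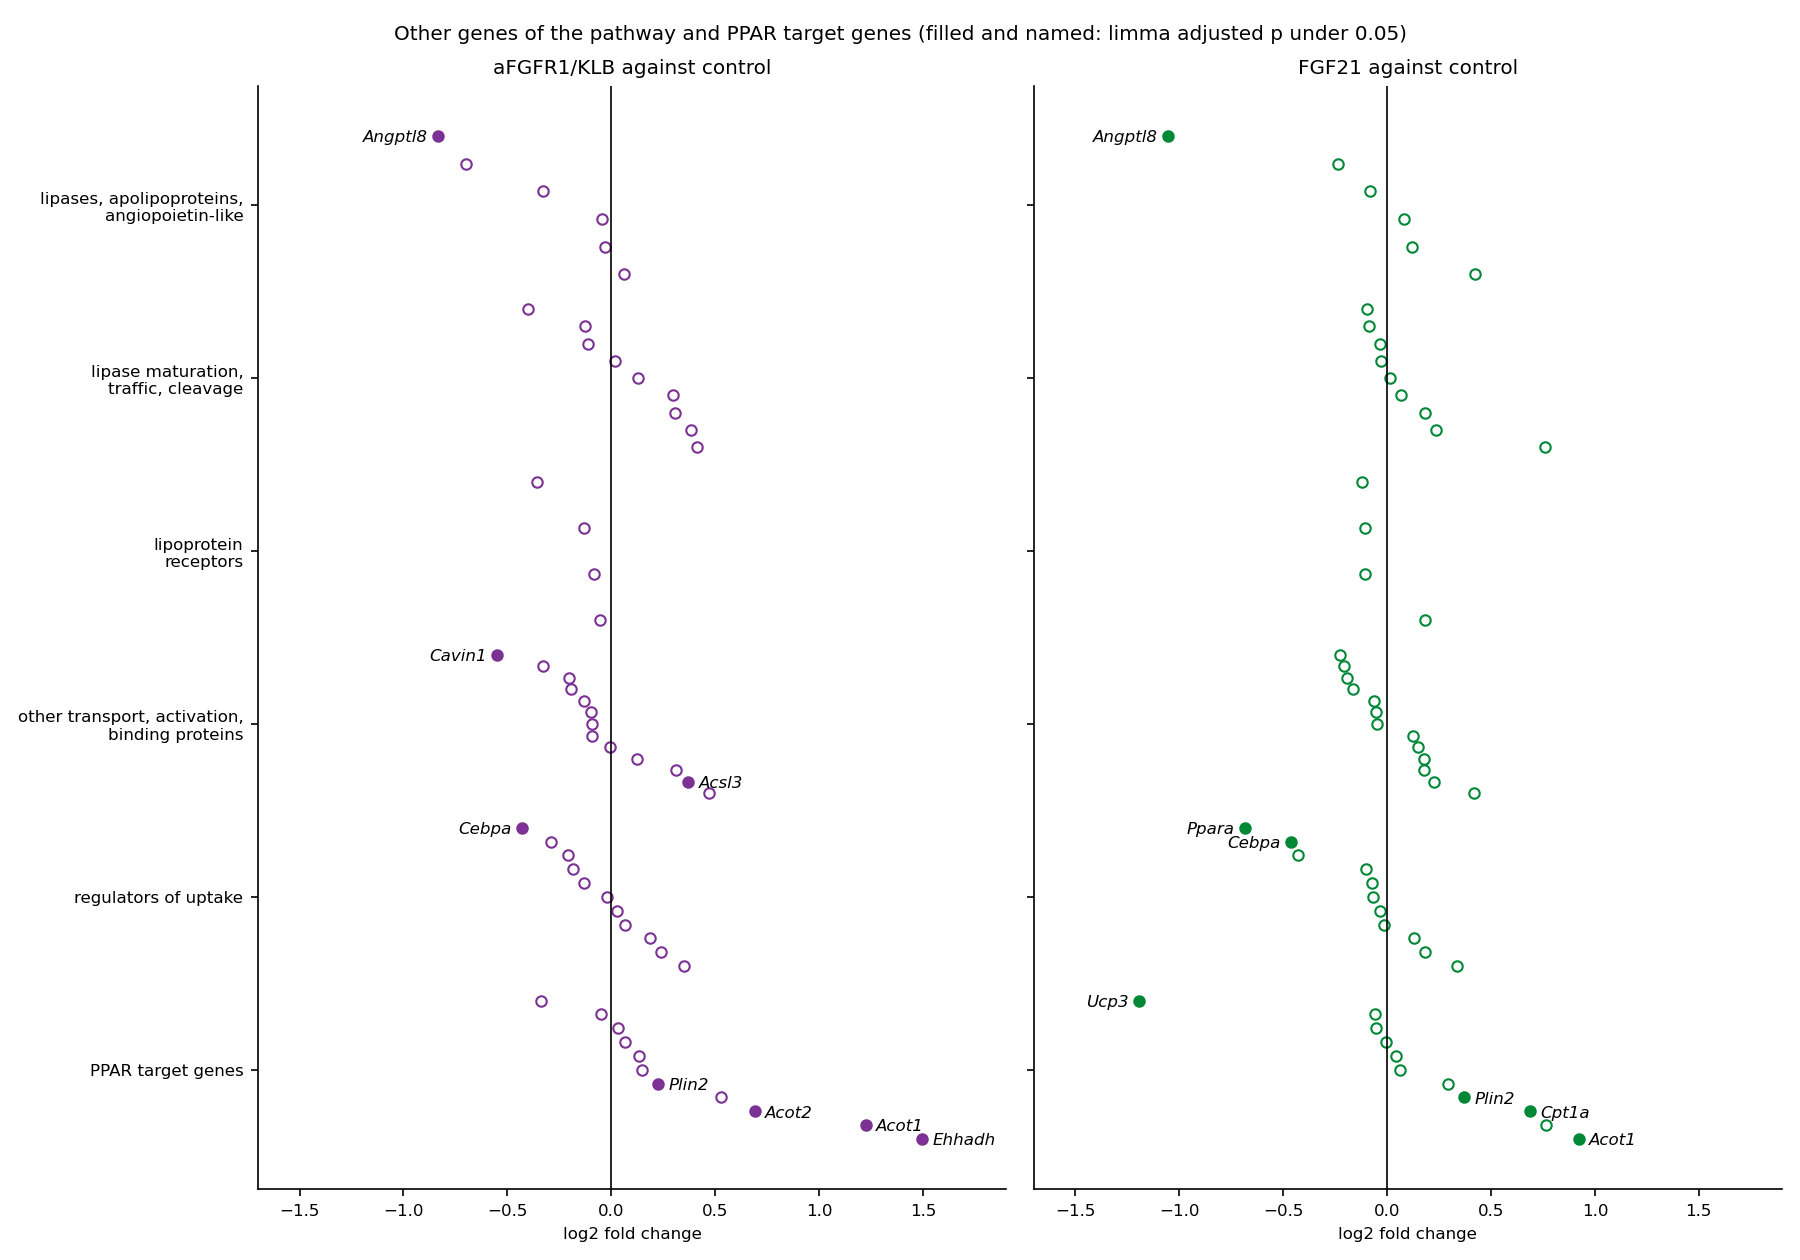
Log2 fold changes against control of the tested pathway genes and PPAR target genes, 1 point per gene, by list, for aFGFR1/KLB (left) and FGF21 (right), with filled and named points for a limma adjusted p under 0.05. Angptl8 and Cebpa are filled and left of 0 in both panels, and Acot1 and Plin2 filled and right of 0 in both.

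Within groups, several genes of the axis varied together across mice. Deviations from group means over 15 samples were used, with p from permutations within groups. Of 45 pairs among the 10 genes, 5 passed after adjustment by Pearson's r, and 4 of the 5 involved Slc27a2. By Spearman's rho on the same 15 samples, 0 of the 45 passed (adjusted permutation p of 0.0706 or more). Vldlr and Slc27a2 had r = 0.85 (permutation p = 0.00045, adjusted 0.0154) and Spearman's rho = 0.78 (permutation p = 0.00157, adjusted 0.0706). Without control 34 and FGF21 36, the most extreme samples, their r was 0.67, and 0 of the 45 pairs passed.

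Of 70 relations with marker lists, 12 passed. Of these, 9 were negative ones with the macrophage or fibroblast mean: Vldlr, Slc27a2, Fabp3 and Gpihbp1 with both, and Lmf1 with the fibroblast mean. The other 3 were Slc27a1 with the adipocyte mean (r = 0.78), Fabp4 with the endothelial mean (−0.65) and Angptl4 with the brown adipocyte mean (−0.76). On the mean over all probe sets of each gene, r was 0.72, 0.099 and −0.77 in turn (adjusted permutation p = 0.0114, 0.794 and 0.0384). The relation of Fabp4 thus did not pass on that mean. By Spearman's rho, Gpihbp1 with the macrophage and fibroblast means did not pass (adjusted permutation p = 0.29 and 0.0727). Nor did Fabp3 with the macrophage mean (0.142), Lmf1 with the fibroblast mean (0.0976) or Angptl4 with the brown adipocyte mean (0.0551). The rest of the 12 passed by rho as well. Vldlr and the macrophage mean had r = −0.96, with a permutation p of 1e-05, the smallest that 100000 permutations can give (adjusted 0.0007), and rho = −0.93 (permutation p = 2e-05, adjusted 0.0014). Without control 34 and FGF21 36 their r was −0.87. Slc27a2 had r = −0.90 with the macrophage mean (permutation p = 0.00055, adjusted 0.00933; rho = −0.78, permutation p = 0.00346, adjusted 0.0325) and −0.78 without those 2 samples. Without them 0 of the 70 relations passed. The fibroblast mean was 10.03 ± 0.32 with the antibody, 10.61 ± 0.56 with FGF21 and 10.53 ± 0.79 in controls (SD, n = 5 each). All 8 of its markers were lower with the antibody than in controls and than with FGF21. With FGF21 against control, 5 were higher and 3 lower. In limma 0 of the 8 were called in any comparison. The part of this mean in the values of the axis was not tested. The macrophage mean was 9.72 ± 0.35 with the antibody, 10.33 ± 1.03 with FGF21 and 9.68 ± 1.15 in controls (SD, n = 5 each). Of its 12 markers, 0 were called against control in limma (5.18% and 6.32% of all genes). Before adjustment 0 had a p under 0.05 (19.4% and 20.4% of all genes). All 12 were nonetheless higher with FGF21 than in controls (median 0.59) and lower with the antibody than with FGF21 (median −0.59). With the antibody against control 5 were higher and 7 lower. With the macrophage mean as a covariate, Slc27a2 differed from control by 1.08 with FGF21 and Gpihbp1 by 0.29, and both passed (adjusted p = 0.000166 and 0.0362). On the same terms the difference of Fabp3 between antibody and FGF21 was 0.35 (adjusted p = 0.0434), and the call of Lpl with FGF21 ended.

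**Figure D5:**
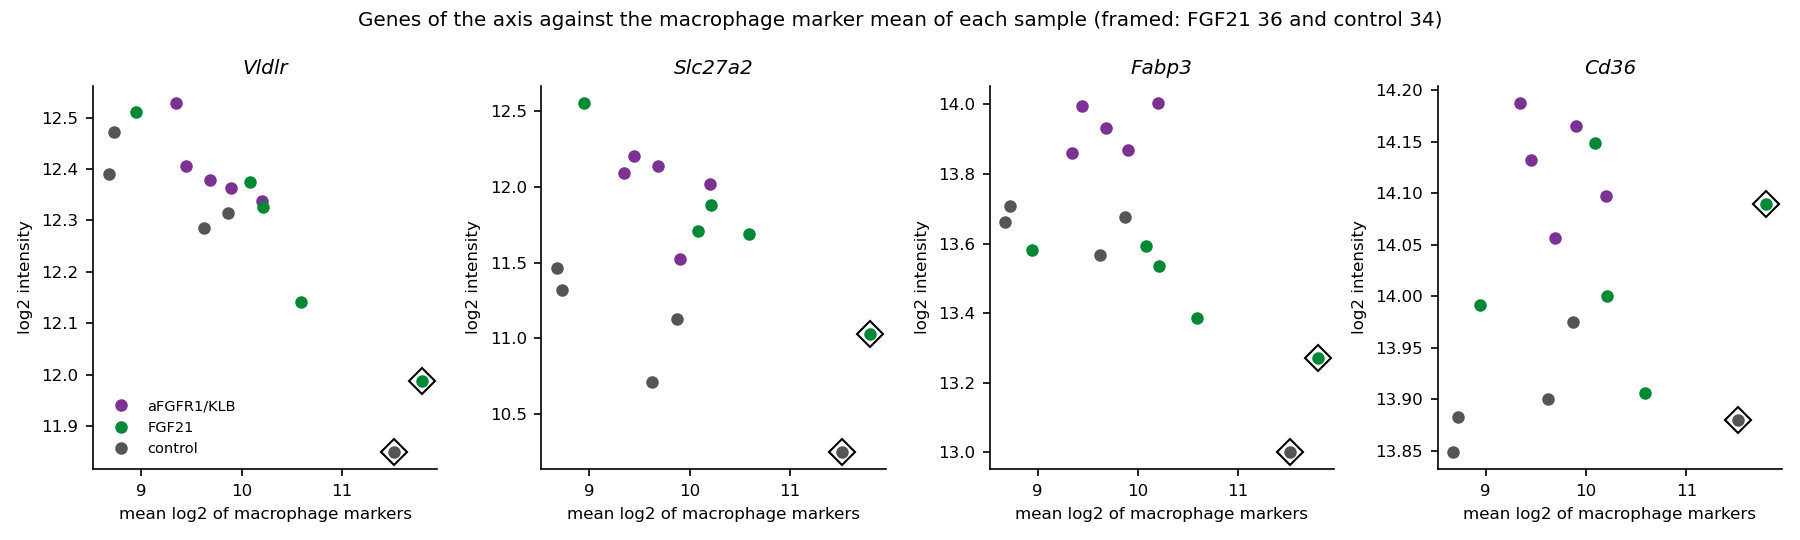
Log2 intensity of Vldlr, Slc27a2, Fabp3 and Cd36 (vertical axes) against the mean log2 intensity of 12 macrophage markers (horizontal axes) in 15 samples, coloured by group. FGF21 36 (11.80) and control 34 (11.52), framed, lie at the right end, and Vldlr, Slc27a2 and Fabp3 are lowest there within their groups.

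The brown fat marker mean was 12.14 ± 0.16 with the antibody, 12.17 ± 0.22 with FGF21 and 11.78 ± 0.11 in controls (SD, n = 5 each). With the antibody 3 of its 8 genes were called higher, against 2.69% of all genes. They were Dio2 (1.16, adjusted p = 0.0142), Ppargc1a (0.60, adjusted p = 0.0486) and Ucp1 (0.19, adjusted p = 0.0494), of which only Dio2 held in 15 of 15 fits without 1 sample. Ppargc1a passed without control 34, FGF21 36, FGF21 39 or aFGFR1/KLB 45 and Ucp1 without FGF21 36, and leaving out any other sample ended their calls (adjusted p up to 0.117 and 0.119). With FGF21, Dio2 rose by 1.89 (adjusted p = 0.000594), in 15 of 15 fits, while Ppargc1a had 0.57 (adjusted p = 0.0559) and Ucp1 0.10 (adjusted p = 0.290). Their part in the changes of the axis was not tested.

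Over the 15 samples, the genes most like each gene called were found by Pearson's r among 12502 genes, as a description. Lpl was closest to Adam12 (r = 0.93) and Resf1 (0.93), Angptl4 to Pqlc3 (0.96) and Phldb1 (0.95), and Cd36 to Ipo4 (0.88) and Mreg (0.87). Slc27a2 was closest to Decr2 (0.97), which encodes a peroxisomal dienoyl-CoA reductase, and to Aspg (0.97). For Slc27a2 and Decr2, r was 0.98 on deviations from group means. For the other pairs that r was lower than the one over all samples: 0.82 for Lpl with Adam12, 0.91 for Angptl4 with Pqlc3, 0.70 for Cd36 with Ipo4, 0.55 for Cd36 with Mreg, 0.85 for Lpl with Resf1, 0.90 for Angptl4 with Phldb1 and 0.97 for Slc27a2 with Aspg.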

How the data were processed

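Total RNA of 15 mice was read on 15 arrays, 5 per group, with groups taken from the sample titles. The authors' method was RMA, per the submitters' processing notes (background correction, quantile normalisation, probe set summary), and the deposited table holds 1 linear intensity per probe set and array (5.58 to 34652; array medians 50.6 to 52.1). These intensities were converted to log2 without renormalising. Of 45101 probe sets, 34958 carried 1 symbol in GEO's platform annotation. The probe set with the highest mean stood for each of 18194 genes, and the 13174 above the 40th percentile of means (5.06) were tested. A model with 3 groups was fitted to all samples in limma 3.58.1 (lmFit, eBayes, R 4.3.3), with two-sided p adjusted by Benjamini and Hochberg within each comparison. The fit was tested on simulated data. Precision is limited by the number of arrays, which have no read depth. Beside the 10 genes, text names go to list genes that were called or had the smallest p, and to those most like a called gene. The genes of the axis and all lists were chosen with earlier results of these data known. Upstream sequences are RefSeq's (GRCm38.p6). Alternatives changed the filter, probe set rule, normalisation, centring, model, weights, covariates and samples.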

Additional observations from a re-analysis of the deposited data

Results flagged for a closer look

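30 groups (10 genes in 3 groups of 5) were examined for a sample lying far from the other 4, which chance alone marks in about 1 in 20 groups, and 4 were found. 3 of them are control 34. It measured 8.54 for Lmf1, where the other controls lay between 8.84 and 8.86, 8.39 for Slc27a1, where they lay between 8.89 and 9.06, and 13.00 for Fabp3, where they lay between 13.57 and 13.71. The fourth is aFGFR1/KLB 45 for Slc27a2, at 11.53, with the other antibody samples between 12.02 and 12.20. Control 34 also had the highest macrophage marker mean of its group (11.52), and its part in these values was not tested.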

How the results depend on the processing

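Values of the 10 genes in 3 comparisons were recomputed under 30 alternatives, 900 values in all: 791 kept direction and side of the threshold, 48 lost and 30 gained a call, and 31 changed sign, none of them called in the main or the alternative fit. Only the 4 values called in the main fit could lose a call, so all 48 losses fell on these. The exact permutation test ended all 4. Under the other 29 alternatives, the antibody calls held in 24 for Angptl4, 21 for Cd36 and 19 for Slc27a2. The call of Lpl with FGF21 held in 8 of the 29. No paired analysis was possible because replicate numbers do not repeat between groups. The main counts were 682, 833 and 49 genes, 3, 1 and 0 genes of the axis and 4, 3 and 1 pathway genes, here and below for antibody against control, FGF21 against control and antibody against FGF21 in turn. Leaving out 1 sample gave 336 to 1140, 463 to 2097 and 10 to 251 genes, 0 to 5, 0 to 2 and 0 to 1 genes of the axis, and 1 to 6, 3 to 7 and 1 to 3 pathway genes. Without control 34 and FGF21 36 the counts were 1631, 2138 and 241 genes, 5, 3 and 1 of the axis, and 11, 10 and 3 pathway genes. Without these samples 0 relations passed among the genes or with marker lists. By Spearman's rho on all samples, 0 relations among the genes passed. Array weights gave 2307, 2855 and 832 genes, 5, 3 and 1 of the axis, and 13, 13 and 6 pathway genes. The macrophage covariate gave 1743, 1329 and 162 genes, 5, 2 and 1 of the axis, and 12, 5 and 3 pathway genes. The endothelial covariate gave 348 and 420 genes against control, 1 and 0 of the axis, and 2 pathway genes with the antibody. The muscle covariate gave 0 genes of the axis with FGF21, and 82 genes and 2 pathway genes between treatments. Ribosomal centring gave 163, 186 and 8 genes and 0 pathway genes or genes of the axis. The exact permutation test gave 0 for all, as even its smallest possible p did not pass after adjustment. The 10 arrays of a comparison alone gave 322 genes, 0 of the axis and 1 pathway gene with FGF21, and 87 genes and 1 of the axis between treatments. A filter at the 60th percentile gave 77 genes and 3 pathway genes between treatments, and a trended robust fit 81 and 3. The mean over probe sets gave 5 and 2 genes of the axis against control, the most variable probe set 2 with FGF21, and each 2 pathway genes between treatments. No filter and quantile normalisation each gave 0 genes of the axis with FGF21. The cause of these changes was not tested.

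Sign changes were as follows, first as ranges over fits without 1 sample. With FGF21 against control these ran from −0.098 to 0.076 for Vldlr, −0.025 to 0.14 for Slc27a1, −0.063 to 0.10 for Lmf1 and −0.18 to 0.0014 for Fabp3. Slc27a1 with the antibody ran from −0.0054 to 0.16, and between treatments Gpihbp1 ran from −0.057 to 0.11 and Slc27a1 from −0.030 to 0.11. Other settings with FGF21 gave Vldlr −0.0088 (mean over probe sets), −0.075 (most variable set) and −0.028 (without control 34 and FGF21 36), Slc27a1 −0.10 (weights) and −0.11 (without both samples), Lmf1 −0.096 (endothelial covariate), and Fabp3 0.061 (macrophage covariate) and 0.00070 (endothelial covariate). With the antibody, Slc27a1 was at −0.0081 (weights) and −0.0054 (without both samples). Between treatments, ribosomal centring gave Lpl 0.071 and Fabp4 0.075, the macrophage covariate gave Gpihbp1 −0.072, Slc27a1 −0.018 and Slc27a2 −0.049, and leaving out both samples gave Gpihbp1 −0.057.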
